A study of Mus musculus with 4 samples.

Results

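The transcriptomes of cells sorted as LSK-SLAM from the adult mouse bone marrow (BM) were compared gene by gene. The cells were sorted by a reporter of BMP signalling, read as active (GFP+) or not (GFP-). The comparison used 1 BM GFP+ sample and 1 BM GFP- sample. Levels are given as FPKM, the number of sequenced fragments scaled by transcript length and by the size of the library. All genes that reached an FPKM of 1 in either sample were taken, which gave 12385 of the 23906 genes listed. Each gene was described by a log2 ratio, the log2 of FPKM + 1 in GFP+ cells over FPKM + 1 in GFP- cells, so that a positive value means a higher level in GFP+ cells. The added 1 makes this ratio understate the difference of genes with low FPKM. With 1 sample per fraction there was no spread between replicates, no test could be made, and "higher" and "lower" below mean past 2-fold on this scale (a log2 ratio of at least 1 or at most -1).

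Both samples came from BRE-GFP transgenic mice, in which a BMP-responsive element drives GFP, so that GFP+ cells are those in which the reporter was read as active at the time of the sort. The transgene was kept on the C57BL/6 background in heterozygous animals. LSK-SLAM cells lack lineage markers, carry Sca1, cKit and CD150 and lack CD48, and the lineage stain for BM held antibodies to CD3, B220, Ter119, Ly6c and CD11b. The series also holds 1 GFP+ and 1 GFP- sample of fetal liver (FL) at embryonic day 14, which are used here only to check labels or to set a value beside its FL counterpart. How many mice contributed cells to a BM sample, and their age beyond adult, are not given in the sources used here.

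LSK-SLAM cells are enriched for haematopoietic stem cells (HSCs), the cells that renew themselves and give rise to all blood lineages. BMP ligands bind pairs of type 1 and type 2 receptors, which phosphorylate Smad1, Smad5 and Smad9, and these join Smad4 and enter the nucleus, where the Id genes are among the best known targets. Stem cells express Kit, Procr and a circuit of transcription factors, and mature cells of each lineage switch on their own abundant products, such as granule proteins in neutrophils, globins in erythroid cells and antigen receptor components in B cells.

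The labels of the BM samples were checked first. The fetal genes Igf2bp1 and H19 had an FPKM of 426 and 44.7 in FL GFP+ and of 58.8 and 42.1 in FL GFP- cells, against 0 for both genes in BM GFP+ and 0.0184 and 0.0368 in BM GFP- cells. The levels of 19 late neutrophil genes summed to 246 and 285 in FL GFP+ and GFP- cells and to 58953 and 8692 in those of the BM, so the tissue labels went with the markers of the tissue. The files hold no row for GFP. BMP target genes, given below, were the only values that bear on the fraction label, and they do not settle it. Values drawn by the study for the BMP receptor genes seem to follow another order of the samples than the labels of the files, a difference that was not settled here, so every direction between GFP+ and GFP- cells rests on the labels of the files. Fewer genes were detected in BM GFP+ than in BM GFP- cells (13489 and 17345 with an FPKM above 0), and bringing both samples to the same FPKM total lowered every ratio by up to 0.46.

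Of the 12385 genes, 2154 (17.4%) were higher and 2072 (16.7%) lower in GFP+ cells, while 8159 (65.9%) lay within 2-fold. The median log2 ratio was 0.12, with quartiles of -0.57 and 0.72, and 5% of genes lay below -1.96 and 5% above 1.83. Higher genes made up 51.0% of those past 2-fold. With both samples brought to the same FPKM total they made up 28.9% (1282 higher, 3147 lower), and the median moved to -0.32. Scaling to a median ratio of 1 or to the same upper quartile gave 43.8% and 43.3%, with a median of -0.02 for each. The balance of directions therefore depends on the scaling. According to the study, its FPKM had already been normalized across samples by a geometric method, which equal totals override. Among the 5755 genes that reached an FPKM of 10 in both samples, 594 were higher and 291 lower, and their median log2 ratio was 0.14. Pearson's r of the log2(FPKM + 1) values of both fractions was 0.833 over the 12385 genes, which describes genes of 1 pair of samples and not replicates. Just outside the level at which genes entered lay Tmem132e (FPKM 0 in GFP+ and 0.9995 in GFP- cells) and Mras (0 and 0.998), and just inside lay Gm14393 (1.0003 and 0.613) and Slc1a4 (0 and 1.0017).

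**Figure D1:**
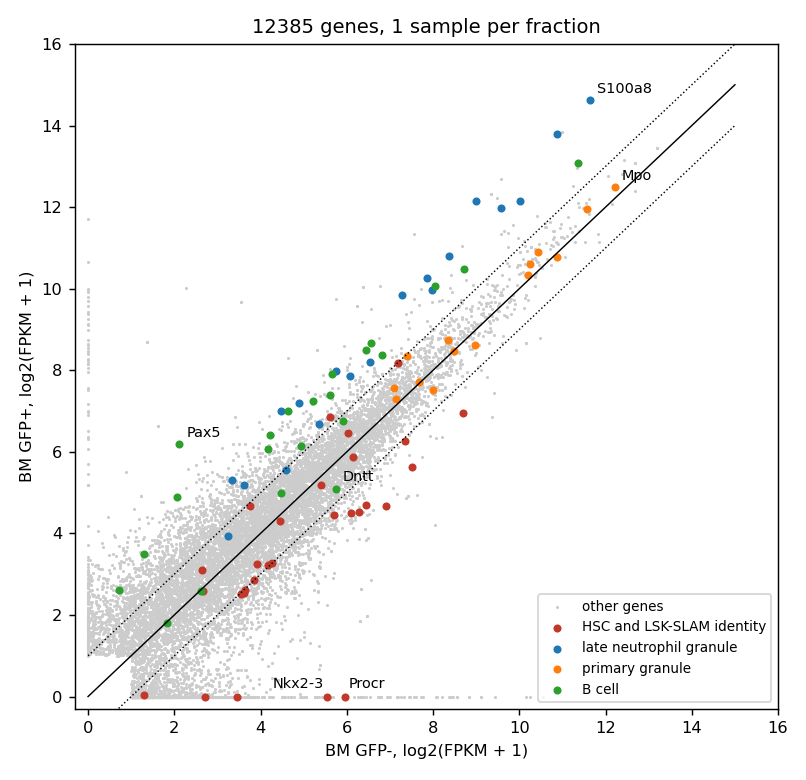
log2(FPKM + 1) in BM GFP+ cells (y axis) against BM GFP- cells (x axis) for the 12385 genes, 1 sample per fraction, with the line of equality and dotted lines at 2-fold. Late neutrophil genes lie above the upper dotted line in 17 of 19 cases, and the 14 genes of the primary granule list lie between the dotted lines. Of the HSC genes, 16 of 29 lie below the lower line, including Procr and Nkx2-3 at 0 in GFP+ cells.

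The pathway that the reporter is built to read was examined next. Among the BMP target genes, Id1, Id2 and Id3 were higher in GFP+ cells. The receptor-regulated Smads Smad1 and Smad5 of the BMP branch were lower, and the BMP receptor genes were scarcely detected in either fraction. Id proteins bind E proteins and keep them from DNA. Id1 had an FPKM of 70.4 in GFP+ cells and 17.5 in GFP- cells, a log2 ratio of 1.95. Id2 had 132 and 23.5 (2.45), and Id3 had 120 and 46.6 (1.34). Id4 was at 0 in GFP+ and 0.103 in GFP- cells. Marker genes of lymphoid and myeloid lineages, given below, were higher in the same GFP+ sample, and their part in the Id values was not tested. Smad7, an inhibitory Smad induced by the pathway, had an FPKM of 3.83 and 1.14 (log2 ratio 1.17), and Hes1, a transcriptional repressor best known as a Notch target, had 7.71 and 2.59 (1.28). Smad6, the other inhibitory Smad, was low in both fractions (0.686 and 0.529). The other BMP targets listed, Hhex, Msx2, Atoh8 and Tmprss6, were not past 2-fold in either direction.

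The promoter of Id2 is shown because this gene had the largest log2 ratio among the targets listed. The window runs from 250 bases before to 50 bases after the start of the gene, on the minus strand of GRCm38.p6 (RefSeq), and capitals mark its match to GGCGCC, a GC-rich element that Smad1 and Smad5 can bind.
Id2, chr12:25096043-25096342, minus strand: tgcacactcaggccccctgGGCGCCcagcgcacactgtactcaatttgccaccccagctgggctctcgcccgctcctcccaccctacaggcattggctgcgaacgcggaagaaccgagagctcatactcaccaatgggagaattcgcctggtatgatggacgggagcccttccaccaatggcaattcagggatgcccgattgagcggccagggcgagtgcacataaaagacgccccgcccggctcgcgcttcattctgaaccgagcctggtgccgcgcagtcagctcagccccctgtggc
The match starts 231 bases before the start of the gene. GGCGCC, which reads the same on both strands, was present in 17.9% of the promoters of higher genes, in 18.9% of those of lower genes and in 20.3% of those of all genes analysed, so its share did not stand above the background in either direction. The Id3 window held no match.

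Of 15 ligand genes of the BMP and TGF-beta families, 5 reached an FPKM of 1 in either fraction. Inhba, which encodes a subunit of activin, was the only one higher, with an FPKM of 12.8 in GFP+ cells and 0.882 in GFP- cells (log2 ratio 2.88). Bmp4 was the only one lower, with 0.133 and 1.90 (-1.35). Gdf3 (3.97 and 8.64), Tgfb1 (0.307 and 1.23) and Gdf15 (5.97 and 3.79) lay within 2-fold, and Bmp2 and Bmp6 were at 0 in both fractions. The type 1 receptor genes Bmpr1a and Acvr1 were at 0 in GFP+ and at 0.347 and 0.466 in GFP- cells, and Bmpr1b was at 0 in both. The type 2 receptor genes Bmpr2 (0.0381 and 0.251) and Acvr2a (0 and 0.472) were likewise below 1, and Acvr2b was at 0 in both. The study reports Bmpr genes as expressed in GFP+ cells of FL and BM and not in GFP- cells. Bmpr1a and Bmpr2 lay in the opposite direction in the BM values here, at levels below 1. At such levels many genes detected in GFP- cells were listed at 0 in GFP+ cells, with shares by level given further on. Receptors for related ligands were measured at higher levels. Acvrl1, the type 1 receptor for BMP9 and BMP10, had an FPKM of 10.9 in GFP+ cells and 1.98 in GFP- cells (log2 ratio 1.995), and its co-receptor Eng had 25.7 and 57.8 (-1.14). Tgfbr2, the type 2 receptor for TGF-beta, had 37.5 and 13.6 (1.40), and its partner Tgfbr1 lay within 2-fold at 4.81 and 3.18.

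Among Smads, their inhibitors and BMP targets, 17 of 24 genes entered. Of these, 8 were higher (47.1%) and 6 lower (35.3%), against 17.4% and 16.7% of all genes. Their median log2 ratio was 0.79 against 0.12 over all genes. Smad1 had an FPKM of 0.577 in GFP+ cells and 5.90 in GFP- cells (log2 ratio -2.13), and Smad5 had 0.130 and 4.28 (-2.22). Smad2 and Smad3, which act for TGF-beta and activin, were lower as well (1.96 and 5.41, and 5.24 and 12.6). Smad4, the partner of both branches, was higher at 3.80 and 0.933 (1.31). Modulators of the pathway were divided between the directions. The co-repressor Ski (6.26 and 0.840) and the anti-proliferative factor Tob1 (25.7 and 10.8) were higher, whereas the decoy receptor Bambi (1.31 and 4.49) was lower and the ubiquitin ligase gene Smurf2 was listed at 0 in GFP+ and 2.34 in GFP- cells.

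**Figure D2:**
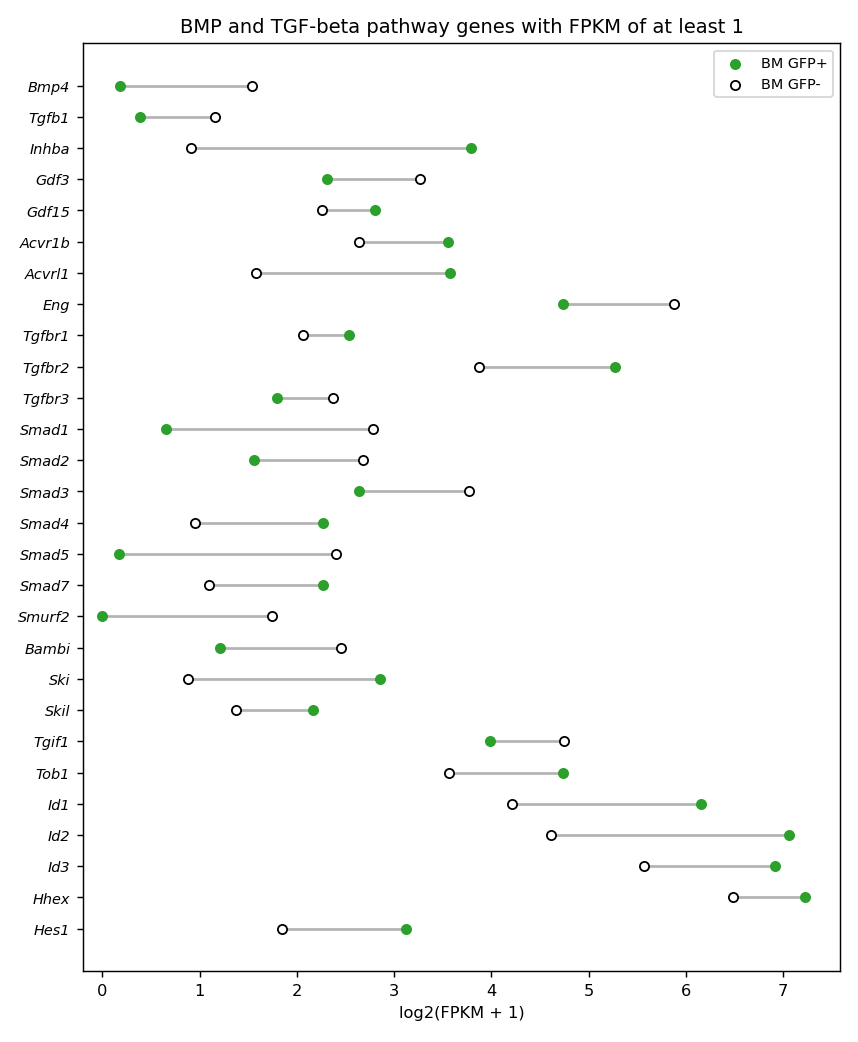
log2(FPKM + 1) of the BMP and TGF-beta genes that reached an FPKM of 1 in either BM fraction, with GFP+ cells in filled green and GFP- cells in open circles, 1 sample each. The circles of Id1, Id2 and Id3 lie to the right in GFP+ cells (FPKM 70.4, 132 and 120) and those of Smad1, Smad2, Smad3 and Smad5 to the left (0.577, 1.96, 5.24 and 0.130).

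Genes that mark HSCs or the LSK-SLAM gate were on balance lower in GFP+ cells. Of 30 such genes, 29 entered, and 16 were lower and 1 higher, against 16.7% and 17.4% of all genes. Their median log2 ratio was -1.03, and 24 of the 29 ratios were negative. Summed over the list, FPKM came to 1045 for GFP+ and 1789 for GFP- cells. In a bulk sample, fewer cells of a type and less RNA per cell cannot be told apart.

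Surface receptors were among the widest differences. Procr, the endothelial protein C receptor (EPCR) used to purify HSCs, was listed at 0 in GFP+ cells and had an FPKM of 60.8 in GFP- cells. Tek, the angiopoietin receptor Tie2, was at 0 and 5.54. Cd34, a sialomucin of progenitors and endothelium, had 48.4 and 182 (log2 ratio -1.89), and the stem cell factor receptor gene Kit had 22.2 and 76.6 (-1.74). Slamf1, which encodes the CD150 of the sort, had 4.74 and 10.7 (-1.03). Ly6a, which encodes Sca1, was on the other side at 286 and 146 but within 2-fold (0.97). Esam, an adhesion molecule of HSCs and endothelium, had 20.9 and 51.1 (-1.25).

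The promoter of Procr is shown because no other protein-coding gene at 0 in GFP+ cells, apart from those that share their values with a short RNA gene, had a higher FPKM in GFP- cells. Capitals mark TGACTCA, a site for AP-1 factors, 154 bases before the start of the gene.
Procr, chr2:155750967-155751266, plus strand: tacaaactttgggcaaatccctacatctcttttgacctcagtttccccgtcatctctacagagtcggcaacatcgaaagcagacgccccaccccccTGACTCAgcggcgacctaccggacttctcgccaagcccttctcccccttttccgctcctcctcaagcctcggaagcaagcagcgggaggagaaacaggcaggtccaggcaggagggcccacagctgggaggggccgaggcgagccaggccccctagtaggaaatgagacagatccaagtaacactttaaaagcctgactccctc
On either strand, TGACTCA was present in 4.63% of the promoters of lower genes, 4.03% of those of higher genes and 3.74% of those of all genes analysed. The windows of Nkx2-3 and Tie1 held none of the motifs searched.

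Transcription factors of the list lay on both sides of the 2-fold line. Nkx2-3, a homeobox gene, was listed at 0 in GFP+ cells against 45.6 in GFP- cells. Gata2 had 25.04 and 86.4 (log2 ratio -1.75), Lmo2, its partner in a complex with Tal1, had 123 and 412 (-1.74), and Meis1, a cofactor of Hox proteins, had 21.5 and 67.0 (-1.60). Hlf (4.83 and 11.3) and Mllt3 (5.14 and 11.4) lay just past 2-fold, and Mecom (6.29 and 13.5, -0.99) and Erg (8.62 and 18.1, -0.99) just within it. Several members showed little difference or the other direction. Myb had 35.5 and 41.4 (-0.22), Etv6 had 18.8 and 20.8 (-0.14), Fli1 had 86.6 and 64.1 (0.43) and Runx1 had 24.4 and 12.4 (0.92). The 1 gene of the list past 2-fold higher was Ptprc, which encodes the CD45 of all white blood cells, at 115 and 48.0 (1.24).

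**Figure D3:**
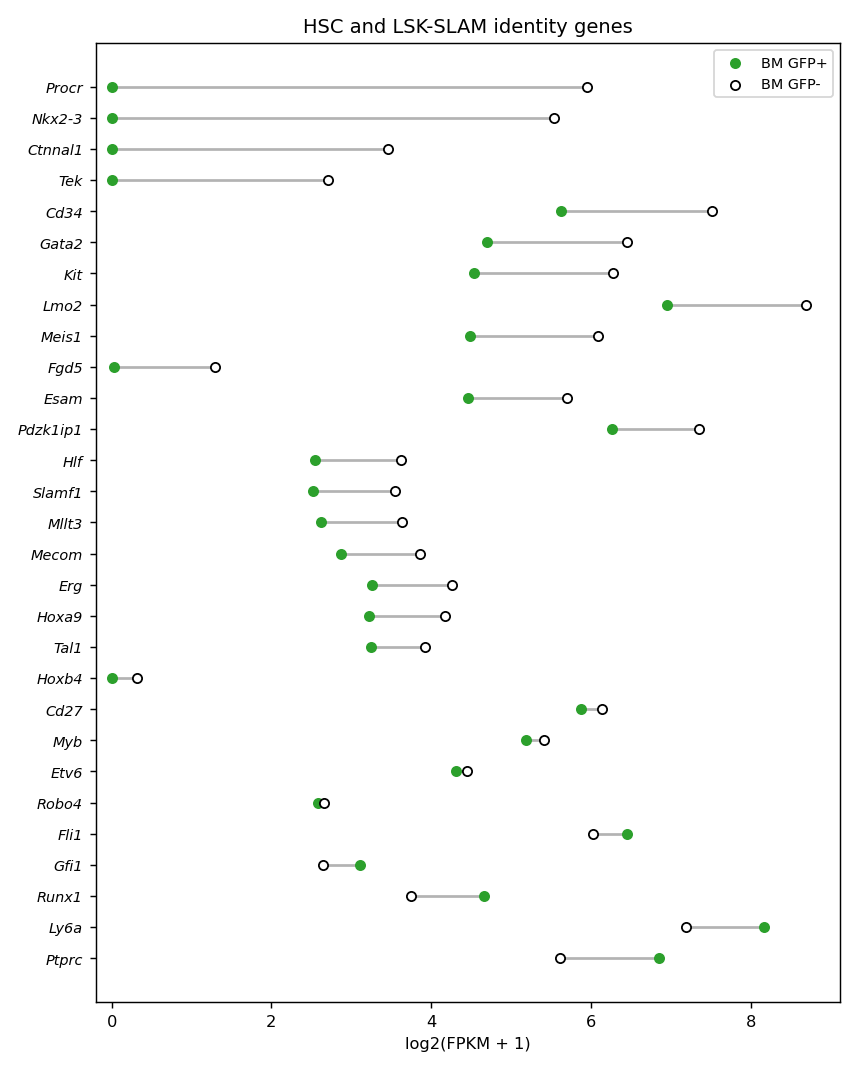
log2(FPKM + 1) of 29 of the 30 genes of the HSC and LSK-SLAM list in BM GFP+ (filled green) and GFP- cells (open), 1 sample each, ordered by log2 ratio. Procr, Nkx2-3, Ctnnal1 and Tek sit at 0 in GFP+ cells against an FPKM of 60.8, 45.6, 10.03 and 5.54 in GFP- cells, and Ptprc at the bottom is higher in GFP+ cells (115 and 48.0).

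Transcripts of the surface proteins that the sort selects against were higher in GFP+ cells. Of 9 genes, 7 were higher and none of the other 2 was lower, and the median log2 ratio was 1.81. Among the 7 is Ptprc, also in the HSC list above, because B220 is a form of the CD45 it encodes. Its FPKM does not separate B220 from the CD45 of all white blood cells. Cd3d, of the T cell receptor complex, had an FPKM of 44.6 and 6.38 (log2 ratio 2.63). Itgam, which encodes CD11b, had 39.0 and 9.11 (1.98), and Cd48 had 267 and 126 (1.07). The Ly6c genes Ly6c1 (13.3 and 7.76) and Ly6c2 (1102 and 605) were within 2-fold. All 9 were also detected in GFP- cells, where Cd48 and Ly6c2 stood at 126 and 605. These values accompany the lineage results that follow, and their part in those results was not tested. All list counts here and in the paragraphs below stand beside the 17.4% higher and 16.7% lower of all genes.

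Neutrophil genes differed by the stage at which they are made. Genes of late stages were higher in GFP+ cells in 17 of 19 cases, with a median log2 ratio of 2.24 and a lowest value of 0.70 (Cxcr2). The primary granule list held genes of primary granules, which promyelocytes and progenitors make, with others such as Calr, Igfbp4 and Rgcc. Its genes lay within 2-fold in 14 of 14 cases, with a median of 0.22. That median turned to -0.23 with equal FPKM totals and was 0.08 with scaling to a median ratio of 1. S100a8, which encodes a subunit of calprotectin, had the highest FPKM of any gene in GFP+ cells, at 25286 against 3189 in GFP- cells (2.99). Its partner S100a9 had 14307 and 1871 (2.93). The secondary granule genes Camp (4560 and 508, 3.16), Ngp (4035 and 761, 2.41), Ltf (994 and 251, 1.98) and Lcn2 (1785 and 331, 2.43) were higher too. The factor Cebpe, needed for secondary granules, had 35.1 and 11.2 (1.57).

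Primary granule genes were abundant in both fractions. Mpo, which encodes myeloperoxidase, had an FPKM of 5777 in GFP+ cells and 4754 in GFP- cells (log2 ratio 0.28). The serine proteases Elane (3991 and 3042, 0.39), Prtn3 (1559 and 1210, 0.37) and Ctsg (1762 and 1868, -0.08) gave much the same picture, although the ratios of Mpo, Elane and Prtn3 became negative with equal FPKM totals. Ms4a3, a marker of granulocyte and monocyte progenitors, was level at 356 and 357. Of the list, Hp was the furthest from equality, at 325 and 166 (0.96). Summed over the lists, late neutrophil genes stood 6.78-fold higher in GFP+ cells and the genes of the primary granule list 1.19-fold.

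The promoters of S100a8, Mpo and Elane are shown because genes on both sides of this division held the same motif. Capitals mark GAGGAAGT or its reverse complement, a core bound by PU.1, the ETS factor encoded by Spi1. All 3 windows are given 5′ to 3′ in the direction of the gene, from 250 bases before to 50 after its start (GRCm38.p6, RefSeq).
S100a8, chr3:90668821-90669120, plus strand: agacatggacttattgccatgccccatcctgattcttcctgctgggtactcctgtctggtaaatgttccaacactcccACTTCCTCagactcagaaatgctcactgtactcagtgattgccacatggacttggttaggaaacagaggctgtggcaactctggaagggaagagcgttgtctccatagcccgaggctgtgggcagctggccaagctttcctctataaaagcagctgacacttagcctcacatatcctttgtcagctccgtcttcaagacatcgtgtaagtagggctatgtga
Mpo, chr11:87793534-87793833, plus strand: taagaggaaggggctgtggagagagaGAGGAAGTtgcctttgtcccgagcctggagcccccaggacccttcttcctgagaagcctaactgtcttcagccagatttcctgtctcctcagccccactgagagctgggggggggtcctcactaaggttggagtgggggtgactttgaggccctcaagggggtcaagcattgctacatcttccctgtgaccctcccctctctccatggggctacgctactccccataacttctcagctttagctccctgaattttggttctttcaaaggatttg
Elane, chr10:79886062-79886361, plus strand: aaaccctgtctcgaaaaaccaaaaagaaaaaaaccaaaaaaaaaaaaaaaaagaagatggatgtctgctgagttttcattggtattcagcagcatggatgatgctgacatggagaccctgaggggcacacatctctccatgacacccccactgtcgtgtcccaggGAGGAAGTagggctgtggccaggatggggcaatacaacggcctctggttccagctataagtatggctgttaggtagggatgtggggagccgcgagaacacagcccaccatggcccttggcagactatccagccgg
The motif starts 172, 224 and 85 bases before the start of S100a8, Mpo and Elane, and Prtn3 held it as well, while the windows of S100a9, Camp, Ngp, Ltf, Lcn2 and Ctsg did not. It was present on either strand in 5% of the promoters of higher genes (77 of 1540), 2.56% of those of lower genes (37 of 1447) and 3.60% of those of all genes analysed, counting the genes found in the promoter table. AGATAA, a site for factors such as Gata1, was in 8.12% of the promoters of higher and 7.95% of those of lower genes. CACGTG, an E-box, was in 8.12% and 9.19%. The motifs were chosen after matches had been seen, and a match describes the letters of the window only.

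B lineage genes were higher in GFP+ cells in 17 of 22 cases, with a median log2 ratio of 1.90 and no gene lower. The B cell receptor components Cd79a (1063 and 265, 2.002) and Cd79b (1431 and 423, 1.76), together with Ms4a1, which encodes CD20 (403 and 94.2, 2.09), were abundant in GFP+ cells and clearly detected in GFP- cells. Pax5, the factor that commits cells to the B lineage, had an FPKM of 71.6 in GFP+ cells and 3.32 in GFP- cells (4.07), and Ebf1, which acts with it, had 28.7 and 3.15 (2.84). Of the list, 5 genes stayed within 2-fold. Dntt, which encodes terminal transferase, had 33.3 and 52.5 (-0.64), Rag2 had 2.51 and 2.57, and the surrogate light chain genes Vpreb1 (30.6 and 21.2), Vpreb2 (5.01 and 5.16) and Igll1 (106 and 59.3) were the others.

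Plasma cell genes were higher in 7 of 8 cases (median log2 ratio 1.62). Igj, the joining chain of IgM and IgA, had an FPKM of 1074 in GFP+ cells and 108 in GFP- cells (3.30), and the exception was Xbp1 at 190 and 136 (0.48). Among T and NK cell genes, 15 of 21 were higher and none was lower (median 1.61). Ccl5, a chemokine of activated T and NK cells, had 237 and 42.6 (2.45), and Prf1, which encodes perforin, had 7.84 and 0.169 (2.92). Lat, a T cell adaptor, was level at 56.9 and 53.04, and the NK receptor gene Ncr1 had 1.38 and 1.93. In the FL samples the T cell genes Cd3e and Cd3g were listed at 0.

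Of 24 erythroid genes, 16 were higher in GFP+ cells and none lower, with a median log2 ratio of 1.44. Both numbers include Hbb-bs with Hbb-b1 and Hba-a1 with Hba-a2, pairs that hold the same values. Globins and other products of maturing red cells were among them. The adult beta globin gene Hbb-bs had an FPKM of 14659 in GFP+ cells and 2042 in GFP- cells (2.84), a value that the files also give for Hbb-b1. The alpha globin gene Hba-a1, listed with the same values as Hba-a2, had 5151 and 651 (2.98). The membrane anion exchanger gene Slc4a1 had 115 and 9.59 (3.45), and Alas2, the first enzyme of erythroid haem synthesis, had 259 and 47.8 (2.41). Several members stayed within 2-fold. Gata1 had 41.0 and 49.3 (-0.26), Car1 had 236 and 338 (-0.51), Klf1 had 86.7 and 52.0 (0.72) and Epor, the erythropoietin receptor, had 32.4 and 22.3 (0.52).

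Megakaryocyte and platelet genes were an exception among the lineage lists. Of 20 genes, 3 were higher (15%) and 4 lower (20%), near the 17.4% and 16.7% of all genes. The median log2 ratio was -0.08. Pf4, a platelet chemokine, had an FPKM of 245 and 315, and Itga2b, which encodes CD41, had 52.2 and 69.8. The lower genes were Treml1 (0.332 and 12.6, -3.35), Gp5 (8.60 and 31.5, -1.76), Selp (2.61 and 9.43, -1.53) and Vwf (0.955 and 3.55, -1.22), the last of which marks platelet-biased HSCs. Gp6, the collagen receptor of platelets, was higher at 3.88 and 0.588 (1.62).

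Eosinophil and basophil genes were higher in GFP+ cells and reached high levels. Of 13 genes in the list with mast cells, 10 were higher and none lower (median log2 ratio 1.76). Prg2, the major basic protein of eosinophils, had an FPKM of 6588 and 767 (3.10), and Epx, eosinophil peroxidase, had 312 and 23.98 (3.65). The basophil protease gene Prss34 had 440 and 107 (2.03). Cpa3, which mast cells and their progenitors share, was level at 34.8 and 37.4 (-0.10), and the mast cell chymase gene Cma1 was at 0 in both fractions.

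Monocyte and macrophage genes were higher in 18 of 23 cases and lower in 1 (median log2 ratio 1.45). Genes of tissue macrophages were among the widest. Fcna, which encodes ficolin A, had an FPKM of 44.8 and 0.838 (4.64), the adhesion gene Vcam1 had 27.3 and 4.77 (2.29) and the complement gene C1qb had 61.7 and 18.2 (1.70). The haemoglobin scavenger receptor gene Cd163 was the lower one (0.570 and 2.204). Csf1r, already expressed by progenitors, was within 2-fold at 27.6 and 19.4 (0.49). Dendritic cell genes were higher in 7 of 10 cases (median 1.85), among them Siglech of plasmacytoid cells (98.0 and 21.6, 2.13) and Itgax, which encodes CD11c (7.68 and 0.217, 2.83).

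MHC class II genes, which B cells, dendritic cells and macrophages share, were higher in 9 of 11 cases with none lower (median log2 ratio 1.75). Among them Cd74, also in the B cell list, shares its values with the microRNA gene Mir5107. The class II chains H2-Aa (2720.5 and 794, 1.78) and H2-Eb1 (1290.5 and 343, 1.91) were followed by Ciita, their transactivator (40.3 and 5.39, 2.69). MHC class I genes, which nearly all cells express, had a median of 0.10 that turned negative with equal FPKM totals (-0.36), and 1 of 18 was higher and 1 lower. Of 12 endothelial and stromal genes, 5 were higher and 2 lower (median 0.76). Cxcl12, the chemokine of the BM niche, was higher at 67.7 and 7.66 (2.99), whereas the endothelial and HSC sialomucin gene Emcn was lower at 0.0797 and 16.4 (-4.01). The collagen genes Col1a1 and Col1a2 were below 1 in both fractions.

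Regulators of lineage choice were then compared. Of 23 lymphoid priming genes, 12 were higher and none lower (median log2 ratio 1.07). Ikzf3, which encodes Aiolos, had an FPKM of 38.1 and 6.50 (2.38). The receptor gene Notch1 (8.53 and 1.06, 2.21), the chromatin organiser Satb1 (12.5 and 1.93, 2.21), the interleukin 7 receptor gene Il7r (20.6 and 4.64, 1.94) and the T cell factor Tcf7 (7.76 and 1.17, 2.01) were higher as well. Tcf12, an E protein, was level at 7.19 and 6.92, and Dntt and Cd27 (57.9 and 69.2) had negative ratios. Several of these regulators, such as Il7r and Ets1 (47.3 and 13.6, 1.73), are also expressed by mature lymphocytes, whose marker genes were higher in the same sample by the counts above, and their part in these values was not tested.

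Of 20 myeloid regulators, 9 were higher and 1 lower (median log2 ratio 0.91). The C/EBP genes Cebpa (6.77 and 1.23, 1.80), Cebpb (6.32 and 0.799, 2.03) and Cebpd (29.9 and 12.1, 1.24) were higher, and Irf8, which directs monocytes and dendritic cells, had 320 and 132 (1.27). The lower gene was Egr1, at 37.4 and 80.9 (-1.09). Erythroid and megakaryocyte regulators were centred near 0 (median -0.12), with 2 of 20 higher and 2 lower. These shares of 10% each lay below the 17.4% and 16.7% of all genes. Gata2, given above, was among the lower ones, and the higher ones were Mafg (25.6 and 7.39, 1.66) and Zbtb7a (31.2 and 10.7, 1.46).

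**Figure D4:**
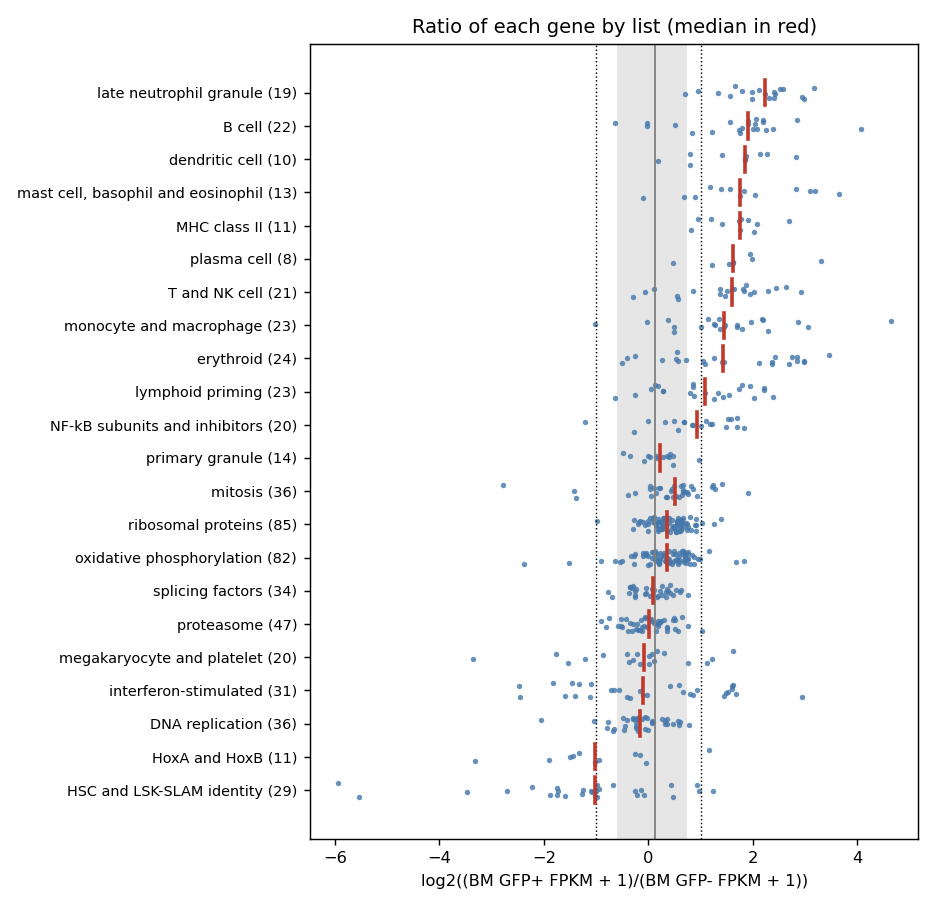
log2 ratio of each gene (points) and the median (red bar) for 22 of the 50 gene lists, with the number of genes in parentheses, 1 sample per fraction. The grey band spans the quartiles of all genes (-0.57 to 0.72) around their median of 0.12, and dotted lines mark 2-fold. Late lineage lists lie to the right (late neutrophil 2.24, B cell 1.90), splicing and proteasome genes near 0 (0.09 and 0.01), and HSC and Hox genes to the left (-1.03 and -1.02).

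The counts of the remaining lists stand beside the 17.4% higher and 16.7% lower of all genes. Of 31 interferon-stimulated genes, 8 were higher and 9 lower, and the median log2 ratio was -0.11. Ifi27l2a had an FPKM of 727 in GFP+ cells and 93.6 in GFP- cells (2.94), and Isg15 (45.8 and 14.1, 1.63), Irf7 (56.6 and 19.6, 1.48) and Rsad2 (38.2 and 12.002, 1.59) were higher with it. The guanylate binding protein genes Gbp2 (6.10 and 38.4, -2.47) and Gbp7 (1.16 and 10.9, -2.46), the related GTPase Irgm1 (28.3 and 72.6, -1.33) and the membrane protein gene Ifitm1 (228 and 608, -1.41) were lower. NF-kB genes were higher in 10 of 20 cases and lower in 1 (median 0.93), with Map3k14, the kinase of the non-canonical pathway, at 8.04 and 2.02 (1.58) and the feedback inhibitor Tnfaip3 at 34.6 and 10.1 (1.69). Of 17 inflammatory cytokine and chemokine genes, 8 were higher, such as Il1b (24.7 and 6.18, 1.84), and 2 were lower, Il15 (7.17 and 30.5, -1.95) and Tnfsf9 (0.731 and 7.84, -2.35).

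Cytokine signalling and immediate early genes held large single differences in lists with medians near 0. In the JAK-STAT list (median log2 ratio 0.16, -0.27 with equal totals), 1 of 19 genes was higher and 4 were lower. Socs2, a feedback inhibitor, had an FPKM of 0.382 in GFP+ cells and 19.3 in GFP- cells (-3.88), and Il6st, the shared receptor gp130, had 0.214 and 5.57 (-2.44). Among 27 early response genes (median 0.27, -0.12 with equal totals), 9 were higher and 3 lower. Klf2, which restrains lymphocyte proliferation, had 127 and 32.3 (1.94), and the phosphatase gene Dusp5 had 20.3 and 2.52 (2.60). Nr4a1 was lower at 19.5 and 67.5 (-1.74), while Fos (768 and 638) and Jun (471 and 418) were abundant and nearly level.

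Cell cycle genes gave no common direction past 2-fold. Of 36 DNA replication genes, none was higher and 2 were lower, among them Gins1 (6.03 and 28.4, -2.06), and the median log2 ratio was -0.16. Of 36 mitosis genes, 5 were higher and 3 lower, and 31 of the ratios were positive. Their median was 0.51, which fell to 0.075 with equal FPKM totals. Mki67, the proliferation marker Ki-67, had an FPKM of 30.6 and 7.45 (1.90) and the kinase gene Plk1 had 105 and 39.1 (1.41), whereas the checkpoint kinase gene Bub1 had 1.28 and 14.6 (-2.77) and Cdk1 was level at 54.6 and 53.4. Among 21 G1 genes, 3 were higher, such as Cdkn2d (248 and 97.5, 1.34), and 2 were lower, Cdkn1a (3.26 and 8.24, -1.12) and E2f3 (1.22 and 3.87, -1.13).

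Hox genes were among the lower groups. Of 21 HoxA and HoxB genes, 11 entered, 6 were lower and 1 was higher, and the median log2 ratio was -1.02. Hoxa5 had an FPKM of 0.0905 in GFP+ cells and 9.91 in GFP- cells (-3.32) and Hoxa10 had 3.03 and 14.1 (-1.91). Hoxa9 lay just within 2-fold at 8.31 and 17.0 (-0.95), Hoxa7 was level at 11.9 and 12.2, and Hoxb3 was the higher one at 1.53 and 0.126. Of 27 adhesion genes, 8 were higher and 3 lower, beside 17.4% and 16.7% of all genes. The leukocyte integrin gene Itgb2 (190 and 65.0, 1.53) and S1pr1, which guides cells out of tissues (62.2 and 14.5, 2.03), were higher. Jam3 (0.561 and 11.6, -3.01) and the laminin receptor gene Itga6 (0 and 4.61) were lower.

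Lists of general cell functions lay close to the centre of all genes. No splicing factor was past 2-fold in either direction (0 of 34), and their median log2 ratio was 0.09. Proteasome genes had a median of 0.01 with 1 of 47 higher, ribosomal protein genes had 0.36 with 3 of 85 higher, and oxidative phosphorylation genes had 0.36 with 3 of 82 higher and 2 lower. Their medians turned to between -0.09 and -0.43 with equal FPKM totals. Heat shock chaperones (median -0.22, 1 of 19 lower), the stress response list (-0.05, 1 of 24 higher and 5 lower) and glycolysis genes (0.10, 1 of 27 higher and 1 lower) were as near to 0, apart from single genes such as Trib3 (0 and 12.9) and the muscle-type phosphofructokinase gene Pfkm (2.68 and 22.6, -2.68). In the Myc list (-0.17), Mycn was lower at 16.4 and 69.4 (-2.01).

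Genes listed at 0 were unevenly divided between the fractions. Of the 12385 genes, 799 (6.45%) were at 0 in GFP+ cells and 164 (1.32%) at 0 in GFP- cells, which is 38.6% of the lower genes and 7.61% of the higher ones. The ratio of such a gene is set by the added 1 and by its level in the other fraction. Without short RNA genes and the genes that share their values, the numbers were 720 and 115 of 12007 genes. Among the genes left, the share of zeros depended on the level in the other fraction. Of those with an FPKM above 1 and up to 2 in GFP- cells, 26.5% were at 0 in GFP+ cells, against 5.02% the other way round. Between 5 and 10 the shares were 5.06% and 1.24%, and between 10 and 20 they were 1.95% (35 of 1793 genes) and 0.0541% (1 of 1849).

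At higher levels zeros became rare, again without short RNA genes and genes sharing their values. Among genes with an FPKM above 20 and up to 50 in GFP- cells, 8 of 2149 (0.372%) were at 0 in GFP+ cells, and between 50 and 100 it was 1 of 1190 (0.0840%), namely Procr. Above 100 there was none among 1132 genes. In the other direction, no gene above 20 in this subset was listed at 0. Nkx2-3 (45.6) was among the 8. The other genes of this kind with the highest FPKM in GFP- cells were Naprt1, of NAD synthesis (31.3), Dcaf4 (24.999), Wbscr16 (23.9), Klhl26 (22.8) and Tmem159 (22.3). In GFP- cells the zeros of highest level were Rnase10 (12.05 in GFP+ cells), the leukotriene receptor gene Cysltr1 (8.59), the macrophage scavenger receptor gene Msr1 (7.42) and the bradykinin receptor gene Bdkrb1 (7.37).

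**Figure D5:**
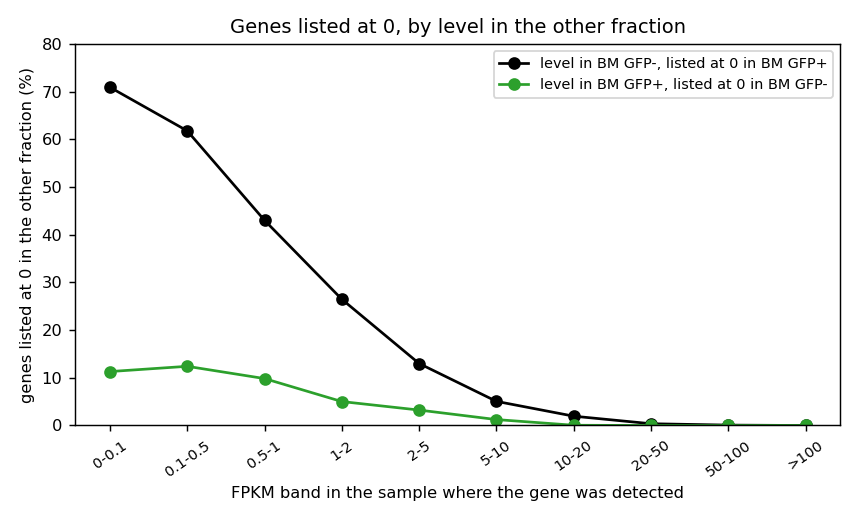
Percentage of genes listed at 0 in 1 BM fraction (y axis) by FPKM band in the other (x axis), without short RNA genes and genes sharing their values. The black line (zeros in GFP+ cells) drops from 70.9% in the lowest band to 5.06% between 5 and 10, and the green line (zeros in GFP- cells) stays between 12.4% and 0.

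The genes with the widest ratios among those that reached an FPKM of 10 in the higher fraction were partly known by their lineage. On the higher side stood Fcna, Pax5, Epx and Slc4a1, described above, with Epcam, an epithelial adhesion molecule (15.6 and 0.176, 3.82), Stfa2l1, a stefin (20.2 and 0.378, 3.94), Hbq1b, a theta globin gene (23.4 and 1.08, 3.55), Ear6, an eosinophil-associated ribonuclease listed with the same values as Ear7 (768 and 74.4, 3.35), and Ube2o, a ubiquitin ligase that remodels the proteome of reticulocytes (14.6 and 0.522, 3.36). On the lower side stood Procr and Nkx2-3 with Tie1, the endothelial receptor related to Tek (0.0370 and 29.2, -4.86), the scavenger receptor gene Scarf1 (0.588 and 39.9, -4.69) and the imprinted gene Phlda2 (0 and 21.5).

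Other top ranks could not be read as levels of the gene named. Nrp1, which encodes a semaphorin and VEGF co-receptor, had an FPKM of 414 in GFP+ cells and 1.58 in GFP- cells (log2 ratio 7.33), but the files give the same 4 values for Mir1903, a microRNA gene that lies inside it. The same held for Parp1 (1045 and 82.1, 3.65) with Mir6904, Zfp518a (29.2 and 1.36, 3.68) with Mir8092, Dgcr8 (2.92 and 87.5, -4.50) with Mir1306, Ubn2 (2.64 and 78.5, -4.45) with Mir7670, Rttn (0.719 and 40.4, -4.59) with Mir6359 and Dancr (0 and 79.0) with Snora26. These were 3 of the 15 widest higher genes and 4 of the 15 widest lower ones. Of all genes analysed, 98 shared their values with a short RNA gene, and 25 of them were higher and 19 lower.

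The mature microRNAs of these shared rows are shown so that they can be told from their hosts, with the seed (bases 2 to 8) in capitals, from RefSeq on GRCm38.p6. None of the 8 seeds was shared.
Mir1903 in Nrp1, chr8:128359251-128359272, plus strand: cCUUCUUCuucuuccugagaca
Mir6904 5p in Parp1, chr1:180587206-180587227, plus strand: uCCUGGGGuuagaguugagugg
Mir6904 3p in Parp1, chr1:180587243-180587260, plus strand: uCUGAUCUcuuaccccag
Mir8092 in Zfp518a, chr19:40894754-40894774, plus strand: gCCAUCUGggacucgcaggca
Mir1306 3p in Dgcr8, chr16:18284248-18284268, minus strand: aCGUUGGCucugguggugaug
Mir1306 5p in Dgcr8, chr16:18284288-18284310, minus strand: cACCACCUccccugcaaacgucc
Mir7670 5p in Ubn2, chr6:38507325-38507346, plus strand: aUUCAGAUgggcagauugggaa
Mir7670 3p in Ubn2, chr6:38507371-38507393, plus strand: uUCCCUUUcugaauaucuguaga
Whether the reads of these rows came from the host or from the short RNA gene was not tested.

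Short RNA genes as a group, those sharing a host's values included, held the most extreme ratios. Of 280 analysed, 91 were higher and 99 lower, or 32.5% and 35.4% against 17.4% and 16.7% of all genes, and the median log2 ratio was 0.06 (-0.36 with equal totals). The small nucleolar RNA gene Snord19 had an FPKM of 3333 in GFP+ cells and was at 0 in GFP- cells, as were the microRNA genes Mir6935 (1612), Mir202 (1009) and Mir6995 (997). In the other direction Mir6985 (1508), Mir762 (1216), Snord37 (1143) and Snord99 (694) were at 0 in GFP+ cells. Of the 1210 short RNA genes listed, 991 were at 0 in GFP+ and 954 in GFP- cells.

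The most abundant transcripts also differed between the fractions. In GFP+ cells S100a8, Hbb-bs and S100a9 led, and the 10 symbols of highest FPKM took 12.7% of the total. That share counts the same values more than once, for Hbb-bs with Hbb-b1, Ddx5 with Mir3064 and Cd74 with Mir5107. In GFP- cells the first ranks were Ddx5, an RNA helicase listed with the values of Mir3064 (11235 in GFP+ and 9306 in GFP- cells), Eef1a1, a translation elongation factor (5343 and 6616), and Stub1, a ubiquitin ligase listed with the values of Mir3082 (8697 and 6562). The 10 symbols took 8.66%, a share that counts the values of Ddx5 and Stub1 again under Mir3064 and Mir3082. Mpo was the 1 granule gene among the first 10 of GFP- cells.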

How the data were processed

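The BM GFP+ and BM GFP- samples were analysed, with the FL pair used for label checks. FPKM values were made and deposited by the authors. The submitters' processing notes name TopHat, Cufflinks 2.2.1, Cuffnorm and mm10, whereas the methods of the study name another mouse build, so the build behind the values is not settled and no coordinate was taken from the files. Libraries were made by SMARTer amplification of cDNA from sorted cells. The study states the depth of each library in uniquely mapped reads, which was slightly greater for BM GFP+ than for BM GFP- cells. The files hold no read counts or errors per gene, so no counting error of a single FPKM was computed.

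Genes that reached an FPKM of 1 in either BM sample were compared by log2 of (FPKM + 1), with 2-fold as the limit. No test was made. The members and the 50 gene lists were chosen with earlier results of these data known. Genes named were those of the lists, the 15 widest ratios in each direction with an FPKM of at least 10 in the higher sample (without short RNA and predicted genes, identical values counted once), the 8 highest genes at 0 in the other fraction, the 4 highest short RNA genes in each direction, the 10 most abundant genes and the threshold neighbours. Promoters and microRNAs came from RefSeq (GRCm38.p6), matched by symbol. The scripts used Python 3.11.15, numpy 2.4.6, pandas 2.3.3 and matplotlib 3.10.9 and were tested on simulated data. Pseudocounts, filters, scalings, thresholds and short RNA genes were varied. A few genes of the lists are counted but not reported by name here.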

Additional observations from a re-analysis of the deposited data

Results flagged for a closer look

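The following values lay on opposite sides of 0 in BM and FL, all as log2 ratios of GFP+ over GFP- cells. The difference between the tissues was not tested, since each condition had 1 sample. The list of mast cell, basophil and eosinophil genes had a median of 1.76 in BM and -2.20 in FL. MHC class II genes had a median of 1.75 and -1.01, inflammatory cytokine and chemokine genes 0.79 and -1.47, and endothelial and stromal genes 0.76 and -0.84. The medians of the tissues are over different genes, since fewer reached an FPKM of 1 in FL (13 mast cell, basophil and eosinophil genes in BM and 10 in FL, 11 and 6 for MHC class II, 17 and 9 for the inflammatory list, 12 and 8 for the endothelial and stromal list). MHC class II genes were scarce in FL, where their FPKM summed to 24.99 (GFP+) and 38.6 (GFP-), against 17055 and 5136 in BM. The BM sums include Cd74 (8726 and 2638), which shares its values with Mir5107.

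Among single genes, Epx, the eosinophil peroxidase gene, had 3.65 in BM and -3.31 in FL, and Ear6, listed with the values of Ear7, had 3.35 and -2.31. The adhesion gene Epcam had 3.82 and -1.86, Ube2o had 3.36 and -1.40, and Otud3, which encodes a deubiquitinase, had 3.44 and -1.59. In the other direction, Phlda2 had -4.49 in BM and 2.54 in FL, Klhl26 had -4.57 and 1.42, and Tmem159 had -4.54 and 1.29. These 3 genes were at 0 in BM GFP+ cells, so their BM ratios are set by the added 1, as are the FL ratios of Epx, Ear6, Epcam, Otud3 and Nrp1, which were at 0 in FL GFP+ cells. Nrp1 (7.33 and -1.51), Dgcr8 (-4.50 and 1.24) and Dancr (-6.32 and 1.07, at 0 in BM GFP+ cells) share their values with short RNA genes.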

How the results depend on the processing

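With 1 sample per fraction, no replicate could be left out. No paired analysis was possible because the groups hold 1 sample each and no result comes from a test. With both BM samples brought to the same FPKM total, 1282 genes were higher and 3147 lower, and the median log2 ratio was -0.3186. Scaling to a median ratio of 1 or to the same upper quartile gave medians of -0.0185 and -0.0207, with 43.8% and 43.3% of the genes past 2-fold higher. A pseudocount of 10 gave 628 higher and 376 lower genes (62.5% higher) with a median of 0.0611, and one of 0.1 gave a median of 0.128. With all detected genes the median was -0.0633, and 4313 genes were at 0 in GFP+ and 457 at 0 in GFP- cells. With an FPKM of at least 1 in both samples, 843 genes were lower (64.8% higher) and the median was 0.1712, and no zeros can occur. With an FPKM of at least 5 in either, 1127 were lower (59.6% higher), the median was 0.1671, and 202 and 67 genes were at 0. A limit of 1.5-fold gave 3682 higher genes, and 4-fold gave 454 higher and 591 lower. Leaving out short RNA genes and genes sharing their values, an alternative chosen after seeing the data, gave 2038 and 1954. Of the 50 lists, 13 had a median of at least 1 in size. All 13 kept its sign under the settings run, and 5 kept that size under each.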

Other observations

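Of 23 genes of cell survival, 6 were higher and 2 lower in BM GFP+ cells, beside 17.4% and 16.7% of all genes, and the median log2 ratio was 0.49 (0.07 with equal FPKM totals). The other counts in these paragraphs stand beside the same shares. The anti-apoptotic gene Bcl2a1b had an FPKM of 15.5 in GFP+ cells and 3.82 in GFP- cells (1.77), and the pro-apoptotic genes Bcl2l11 (8.23 and 2.35, 1.46) and Bmf (2.81 and 0.213, 1.65) and the death receptor gene Fas (12.3 and 4.89, 1.18) were higher as well, so members of opposite function lay on the same side. The p53 target genes Cdkn1a (3.26 and 8.24) and Phlda3 (0 and 4.45) were the lower ones. Genes of haem synthesis and iron were higher in 9 of 21 cases with none lower (median 0.58). They included the mitochondrial iron importer gene Slc25a37 (41.3 and 7.21, 2.37) and Fech, the last enzyme of haem synthesis (53.05 and 19.2, 1.42). Alas2, Tfrc, Fech and Slc25a37 are also in the erythroid list, so the counts of these lists are partly of the same genes. Most genes of the erythroid list were higher in the same sample, and their part in the other values was not tested.

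Of 25 Polycomb and DNA methylation genes, 3 were higher and 2 lower, shares below those of all genes, and the median log2 ratio of 0.17 turned to -0.19 with equal FPKM totals. Ezh1, a histone H3 lysine 27 methyltransferase of resting cells, had an FPKM of 29.6 and 12.6 (1.17), while its homologue Ezh2 was nearly level at 39.1 and 32.6. The Polycomb gene Bmi1, needed for HSC self-renewal, had 1.44 and 5.28 (-1.36). The H3 lysine 27 demethylase genes went apart, with Kdm6a at 3.44 and 9.93 (-1.30) and Kdm6b at 3.37 and 1.07 (1.08). Among lipid enzymes, 4 of 28 were higher and 2 lower, again below the shares of all genes, with a median of -0.18. The stearoyl-CoA desaturase gene Scd1 was higher at 47.7 and 8.55 (2.35), whereas the polyunsaturated desaturase genes Fads1 (8.46 and 21.3, -1.24) and Fads2 (5.92 and 17.1, -1.39) were lower.

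Among Foxo and antioxidant genes, 5 of 26 were higher and 1 lower, with a median log2 ratio of 0.41 that turned to -0.04 with equal FPKM totals. Foxo3 had an FPKM of 21.6 and 7.91 (1.34), the secreted peroxidase gene Gpx3 had 39.3 and 4.96 (2.76), and the mitochondrial peroxiredoxin gene Prdx3 was lower at 60.3 and 139 (-1.19). Of 33 autophagy and lysosome genes, 7 were higher and none lower, and the median of 0.21 turned to -0.25 with equal totals. Among them were Psap, which encodes prosaposin (974 and 349, 1.48), and Tfeb, a regulator of lysosome genes (15.8 and 6.63, 1.14). Of 53 histone genes, 14 were higher and 7 lower (median 0.53), with Hist1h2an at 22.4 and 3.25 (2.46) and Hist1h3d at 0 and 13.7. Histone genes of near-identical sequence can share reads, so single histone values are uncertain.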
